A study of Homo sapiens with 6 samples.

Results

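Prostaglandin synthesis and signalling was followed across pLUM and pLB cells through 10 genes: PLA2G4A, PTGS1, PTGS2, PTGES, PTGES2, PTGES3, HPGD, SLCO2A1, PTGER2 and PTGER4. Every spot that was not a control and carried the name of 1 of these genes was used, which gave 11 probes of the 34127 gene probes and 10 of the 25940 gene names on the array. The rule used names alone, but the genes were chosen with earlier results of these data known. pLUM (pure luminal) and pLB (pure luminobasal) cells are lines derived from xenografts of T47Dco, a subline of T47D, which is an established line of human luminal breast cancer cells. pLUM came from a tumor grown with estrogen (E), was purified as CLD3+ CD49f- and had received 1 nM estradiol for 72 h, while pLB came from a tumor grown with E plus progesterone, was purified as CLD3- CD49f+ and was kept in estrogen-withdrawn (EWD) medium. For profiling, cells of each established line were fixed and sorted by cytokeratin 5 staining (fluorescence-activated cell sorting, FACS), and RNA of 3 such sorts per line was hybridized, each to 1 single-dye Agilent array (n = 3 per line).

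Each type of cell is represented by a single line, and line and hormone coincided on all 6 arrays, so that their effects cannot be told apart. Which cytokeratin 5 fraction of each line was hybridized is not given in the sources used here. P-values below measure the spread between sorts of 1 line, which may be technical. In RNA of sorted cells, fewer cells that express a gene and less RNA per cell cannot be told apart.

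Prostaglandins are lipid signals made from arachidonic acid. Phospholipases free the acid from membranes, cyclooxygenases convert it to prostaglandin H2, and terminal synthases turn that into prostaglandin E2 (PGE2) and related products. Secreted PGE2 acts on EP receptors of the same or neighboring cells, and is removed by uptake and oxidation. In breast cancer the pathway is known above all for the inducible cyclooxygenase, the target of anti-inflammatory drugs.

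Levels are log2 signals from which the 75th percentile of the same array was subtracted, so that a level of 0 is that percentile and a difference of 1 is 2-fold. These are compared between lines for the same probe, never between probes. A probe was taken as measured where the scanner software scored it as well above background, and the lowest such signal lay between -5.71 and -4.75 on the 6 arrays. A gene was called where its line means differed at least 2-fold with an adjusted p under 0.05 (limma, Benjamini-Hochberg over 23105 probes). If no array of a line gave a probe such a score, the fold is stated as "at least", and the fitted difference then depends on values under that limit.

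The lines differed widely. Of 17670 genes tested, 22.7% were called higher and 23.0% lower in pLB, and arrays correlated at r = 0.972 to 0.991 within a line and 0.780 to 0.806 between lines. Of 7 luminal markers 6 were called lower in pLB, and of 7 luminobasal markers all 7 were called higher. Of 12 markers of mast cells, endothelium, fibroblasts and other non-epithelial cells, 6 could be tested, of which 2 were called higher and 0 lower. Their summed linear level was 1.16 to 1.21 in pLUM and 0.783 to 1.46 in pLB. In neither line was any array well above background for KIT, TPSAB1, PECAM1, PDGFRB, LUM or DCN. By the brightest probe of each, PTPRC, CD14, CDH5 and COL1A1 were well above background on all 6 arrays and were not called. CD68 and VWF were the pair called higher, VWF by at least 1.8-fold since it was dim in pLUM. Another PTPRC probe was called lower in pLB (log2 difference -1.20, adjusted p = 0.0045, limma). The remaining PTPRC probes were well above background on no array of either line. All these markers were named after their values were seen. All pLUM arrays and pLB replicate 1 were on 1 slide and pLB replicates 2 and 3 on another.

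The genes differed in direction and in how far they could be measured. Of the 10 genes, 8 were tested, 6 were called higher in pLB and 0 lower, beside 22.7% and 23.0% of all genes tested. The same 6 and 0 resulted at an unadjusted p under 0.05. PLA2G4A, PTGS1, PTGS2 and PTGER2 were well above background on every pLB array and on no pLUM array, so that they entered the test only through pLB and had to be higher there, and the count of 6 includes them. Among the 4 genes measured on all 6 arrays, SLCO2A1 and PTGES3 were called higher and PTGES2 and PTGER4 were not called. PTGES and HPGD were too dim to be tested, and PTGES read lower in pLB. The median log2 difference of the 8 tested genes was 3.98, or 1.79 with the dim genes at their bounds, against 0.04 over all genes. All pLB arrays lay above all pLUM arrays for the 8 tested genes, which held for 35.7% of all genes tested. This count and the median also include the 4 genes that entered only through pLB and had to be higher there.

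**Figure D1:**
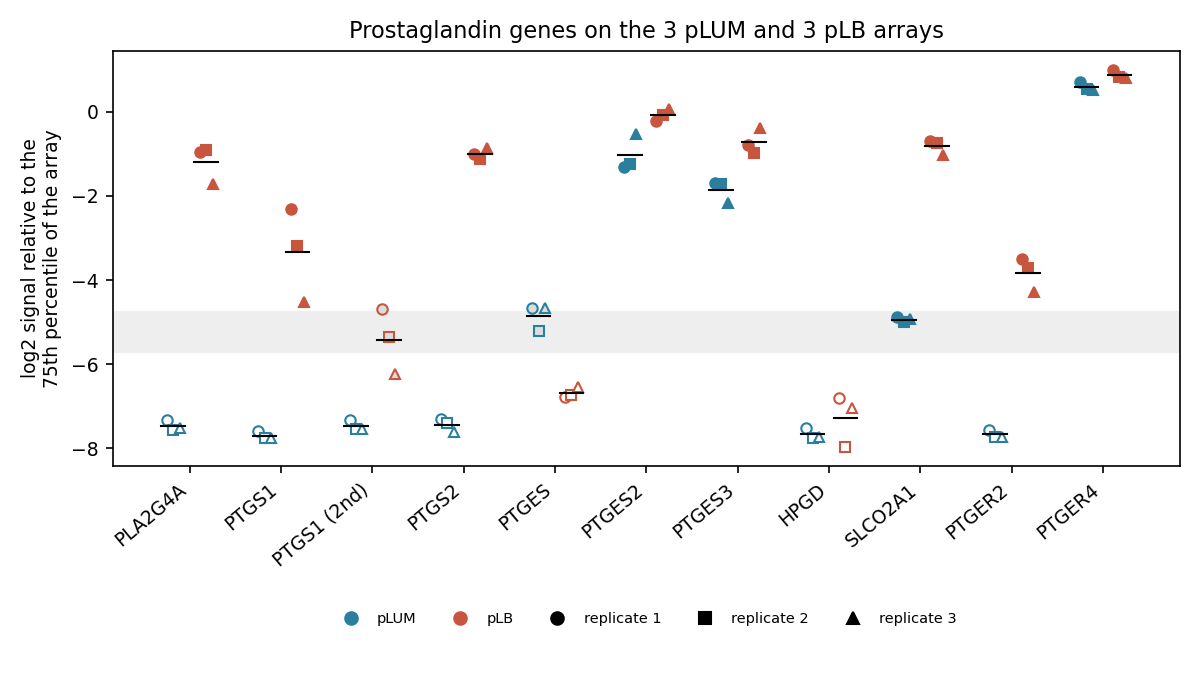
Log2 signal relative to the 75th percentile of the array (y axis) for the 11 probes of the 10 genes (x axis) on the 3 pLUM (blue) and 3 pLB (red) arrays, with a shape for each replicate and a black bar at the mean of each line. Filled, grey and white symbols mark probes well above background on all, some or none of the arrays of that line, and the grey band spans the lowest signal scored so on each array, -5.71 to -4.75. PLA2G4A, the first PTGS1 probe, PTGS2 and PTGER2 are white in pLUM and filled in pLB, and the second PTGS1 probe is white in pLUM and grey in pLB.

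PLA2G4A encodes cytosolic phospholipase A2 alpha, which frees arachidonic acid from membrane phospholipids. It was not well above background in pLUM and was measured in all pLB sorts. Its probe (NM_024420, hg19 chr1:186957652-186957711, plus strand), printed as 10 spots, read -7.33, -7.57 and -7.52 on pLUM replicates 1 to 3 and -0.95, -0.90 and -1.71 on pLB replicates 1 to 3. The lines did not overlap, and pLB replicate 3 was the lowest of its line. Deposited intensities were 2.98 to 3.11 in pLUM and 137 to 450 in pLB. The level was therefore at least 18.3-fold higher in pLB (fitted log2 difference 6.28, SE 0.25, adjusted p = 1.7e-06, limma).

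The upstream sequence of this gene is shown because PLA2G4A and PTGS2 are close on chromosome 1 and both were too dim to measure in pLUM. RefSeq sequences (GRCh38.p14) of 250 bases before the annotated start are printed here and for the cyclooxygenases and PTGER2, and 9 of the 10 genes, with 13 starts, had an entry. Both strands were searched for 4 motifs, and shares are of windows of the same length in all 35116 promoters of the table. A TATA box, TATAAA, was found in 10.7% of these. The core of a cyclic AMP response element, CGTCA, was found in 21.2%. A GC box, GGGCGG, was found in 42.6%, and an AP-1 element, TGANTCA, in 6.57%. Matches are in capitals, and no match overlapped another in the sequences printed. PLA2G4A held none of the 4 and had a GC content of 38.8%.
PLA2G4A, chr1:186828699-186828948, plus strand: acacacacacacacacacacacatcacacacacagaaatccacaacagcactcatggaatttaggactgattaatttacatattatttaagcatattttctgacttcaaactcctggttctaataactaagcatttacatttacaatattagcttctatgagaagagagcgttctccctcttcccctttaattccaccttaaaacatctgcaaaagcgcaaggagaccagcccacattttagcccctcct

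PTGS1 and PTGS2 encode the cyclooxygenases, which carry out the committed step from arachidonic acid to prostaglandin H2. PTGS1 is known as the constitutive and PTGS2 as the inducible enzyme. Both were well above background in every pLB sort and in 0 of 3 pLUM sorts. PTGS2 was even across the pLB sorts, whereas PTGS1 spread over more than 2 log2 units. Since the enzymes are homologous, the first 30 bases of each 60-base probe are shown as they lie on the array. The longest run shared between a PTGS1 and the PTGS2 probe over the whole 60 bases was 6 bases.
PTGS2 probe (NM_000963): tgagatatttaaggttgaatgtttgtcctt
PTGS1 first probe (NM_000962): tcatttggtctgccagaatactgggttctt
PTGS1 second probe: acaggctaaatgcaccaagaaagcttcttc

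The PTGS2 probe (hg19 chr1:186641469-186641528, minus strand, 10 spots) read -7.31, -7.40 and -7.61 on the pLUM arrays and -1.0, -1.13 and -0.86 on the pLB arrays. Each pLB sort lay far above each pLUM sort, and the SD was 0.16 in pLUM and 0.13 in pLB (n = 3 each). In deposited intensity this was 2.91 to 3.63 against 247 to 435. PTGS2 was thus at least 20.8-fold higher in pLB (fitted log2 difference 6.44, SE 0.17, 95% interval 6.05 to 6.84, adjusted p = 4.2e-07, limma). Of the 13 upstream windows of the 9 genes with an entry, 2 held TATAAA, 4 held CGTCA and 10 held GGGCGG, while 0 held the AP-1 element. The PTGS2 window held both, with TATAAA beginning 32 bases and CGTCA 58 bases before the start, and no GGGCGG.
PTGS2, chr1:186680424-186680673, minus strand: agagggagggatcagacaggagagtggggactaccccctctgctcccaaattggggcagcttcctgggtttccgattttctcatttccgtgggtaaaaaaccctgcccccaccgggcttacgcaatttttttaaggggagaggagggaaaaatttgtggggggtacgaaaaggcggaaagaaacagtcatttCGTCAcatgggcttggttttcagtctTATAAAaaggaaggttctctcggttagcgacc

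The first PTGS1 probe (hg19 chr9:125155052-125155111, plus strand) read -7.58, -7.76 and -7.76 on the pLUM arrays and -2.32, -3.19 and -4.51 on the pLB arrays. All pLB sorts were higher, with replicate 1 the highest and replicate 3 the lowest, and the SD was 1.1 in pLB against 0.10 in pLUM. On the same arrays the deposited 75th percentile was 869, 696 and 449, and the lowest signal well above background was highest on pLB replicate 3. Whether these move the PTGS1 values was not tested. PTGS1 was at least 4.1-fold higher in pLB (fitted log2 difference 4.36, SE 0.50, adjusted p = 0.00023, limma). The call was lost with normexp background correction with an offset of 50 (log2 difference 0.58, adjusted p = 0.27). The second PTGS1 probe (chr9:125157536-125157595) reached that score in 2 of 3 pLB sorts and 0 of 3 pLUM sorts, and was not tested. It read -7.34, -7.54 and -7.54 in pLUM and -4.70, -5.36 and -6.24 in pLB, with the pLB sorts in the same order as for the first probe. PTGS1 is listed with 2 starts. The window of the first start held TATAAA on the opposite strand 208 bases before it, and GGGCGG 58 bases before it. That of the second start held GGGCGG 202 bases before it. GC content was 49.6% and 65.2%.
PTGS1 first start, chr9:122370283-122370532, plus strand: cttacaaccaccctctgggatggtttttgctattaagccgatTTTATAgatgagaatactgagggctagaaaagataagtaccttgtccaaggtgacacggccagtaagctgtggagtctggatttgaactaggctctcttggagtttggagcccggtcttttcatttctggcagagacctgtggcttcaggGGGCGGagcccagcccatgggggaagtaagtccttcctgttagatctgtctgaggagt
PTGS1 second start, chr9:122375052-122375301, plus strand: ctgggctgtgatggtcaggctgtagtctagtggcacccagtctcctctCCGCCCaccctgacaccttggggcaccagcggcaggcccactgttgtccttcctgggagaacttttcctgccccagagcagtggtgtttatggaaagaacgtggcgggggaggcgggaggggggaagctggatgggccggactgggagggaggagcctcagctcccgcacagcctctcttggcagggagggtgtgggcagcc

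Terminal PGE2 synthases convert prostaglandin H2 to PGE2. The 3 genes did not move together: PTGES3 was called higher in pLB, PTGES2 was higher by less than 2-fold, and PTGES, the inducible microsomal synthase, read lower in pLB near the limit of detection. PTGES (NM_004878, hg19 chr9:132501510-132501569, minus strand) read -4.67, -5.21 and -4.66 in pLUM and -6.79, -6.73 and -6.55 in pLB. Every pLB sort was below every pLUM sort, as for 33.5% of all genes tested. Only 1 pLUM array and 0 pLB arrays scored it as well above background, so it was not tested. Deposited intensities were 15.2 to 22.4 in pLUM and 4.79 to 7.85 in pLB, and no fold is given. With no filter on dim probes PTGES was called lower (log2 difference -1.84, adjusted p = 0.00067, limma).

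PTGES2 encodes a membrane-associated PGE2 synthase (NM_025072, hg19 chr9:130886007-130886066, minus strand). It read -1.31, -1.23 and -0.52 in pLUM and -0.22, -0.07 and 0.06 in pLB. The lines did not overlap, but pLUM replicate 3 lay close to the pLB sorts. The log2 difference was 0.94 (SE 0.24, 95% interval 0.37 to 1.52, adjusted p = 0.012, limma), or 1.92-fold. It passed 2-fold without pLUM replicate 3 (1.2), without pLB replicate 1 (1.02) and with spike-in scaling (1.2), which moved the median of all probes to 0.247. Within the slide shared by both lines it was 0.80 (adjusted p = 0.099).

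PTGES3 encodes p23, known both as a cytosolic PGE2 synthase and as a co-chaperone of Hsp90. Its probe (NM_006601) is placed on the minus strand of chromosome 12, and the files give only 9 of its bases there (hg19 chr12:57057109-57057117). It read -1.70, -1.72 and -2.16 in pLUM and -0.79, -0.97 and -0.39 in pLB. All pLB sorts were above all pLUM sorts, and pLUM replicate 3 and pLB replicate 3 were the extremes. PTGES3 was 2.21-fold higher in pLB (log2 difference 1.14, SE 0.22, 95% interval 0.62 to 1.66, adjusted p = 0.0031, limma). The call stood close to its 2-fold limit. It was lost without pLUM replicate 3 (0.99), without pLB replicate 3 (0.98) and with normexp (0.77), in each case with an adjusted p under 0.05.

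SLCO2A1 encodes the prostaglandin transporter, which takes PGE2 up from outside the cell, and HPGD the dehydrogenase that then inactivates it. The transporter was measured on all 6 arrays and was much higher in pLB, whereas HPGD was not well above background in either line. SLCO2A1 (NM_005630, hg19 chr3:133651781-133651840, minus strand) read -4.89, -5.00 and -4.93 in pLUM and -0.70, -0.74 and -1.02 in pLB. The sorts of each line lay close together, with pLUM near the limit of detection. It was 17.4-fold higher in pLB (log2 difference 4.12, SE 0.16, 95% interval 3.74 to 4.50, adjusted p = 1.7e-06, limma), and 1.90 on the log2 scale with normexp, still called. HPGD (NM_000860, hg19 chr4:175411686-175411745, minus strand) read -7.52, -7.75 and -7.74 in pLUM and -6.80, -7.97 and -7.04 in pLB. The lines overlapped and no fold is given.

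PTGER2 and PTGER4 encode EP2 and EP4, the receptors through which PGE2 raises cyclic AMP. PTGER2 was measured only in pLB, while PTGER4 was measured in both lines at levels that differed little. PTGER2 (NM_000956, hg19 chr14:52794430-52794489, plus strand) read -7.56, -7.73 and -7.73 in pLUM and -3.50, -3.71 and -4.29 in pLB. All pLB sorts were higher, replicate 3 again being the lowest. PTGER2 was at least 2.91-fold higher in pLB (fitted log2 difference 3.84, SE 0.23, adjusted p = 1e-05, limma). The call was lost with normexp (log2 difference 0.39, adjusted p = 0.46). Its upstream window had a GC content of 74.0%, a CGTCA 137 bases before the start and 2 copies of GGGCGG, the nearer at 49 bases.
PTGER2, chr14:52314062-52314311, plus strand: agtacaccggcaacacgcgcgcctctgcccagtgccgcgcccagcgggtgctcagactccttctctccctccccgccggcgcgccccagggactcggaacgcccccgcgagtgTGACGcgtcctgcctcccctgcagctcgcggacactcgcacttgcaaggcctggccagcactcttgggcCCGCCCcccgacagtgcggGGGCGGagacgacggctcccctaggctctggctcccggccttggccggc

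PTGER4 (NM_000958, hg19 chr5:40693563-40693622, plus strand) read 0.70, 0.55 and 0.52 in pLUM and 1.01, 0.83 and 0.81 in pLB. The lines did not overlap, but the gap between them was narrow. The log2 difference was 0.29 (SE 0.16, 95% interval -0.08 to 0.66, adjusted p = 0.14, limma), so that a rise of up to 0.66 in pLB is within its error. PTGER4 was called under none of 19 alternatives, with differences between 0.23 and 0.55.

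The other EP receptor genes went the opposite way. EP3, encoded by PTGER3, lowers cyclic AMP, and EP1, encoded by PTGER1, raises calcium. The array holds 4 PTGER3 probes for different transcripts, and all 4 were called lower in pLB. The brightest of them over all arrays (NM_198719, hg19 chr1:71436570-71436629) read -0.24, -0.29 and -0.35 in pLUM and -2.81, -3.15 and -3.57 in pLB, or 7.37-fold lower (log2 difference -2.88, adjusted p = 3.1e-05, limma). The NM_198717 probe (chr1:71477989-71478048) fell 23.2-fold (log2 difference -4.53, adjusted p = 3.6e-06). The NM_198715 probe fell 7.94-fold, and the NM_198714 probe, not well above background in pLB, was at least 3.08-fold lower. The NM_198714 probe entered the test only through pLUM and had to be lower in pLB. PTGER1 was 2.19-fold lower (log2 difference -1.13, adjusted p = 0.041), with overlapping arrays, and 13 of 18 alternatives lost that call.

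**Figure D2:**
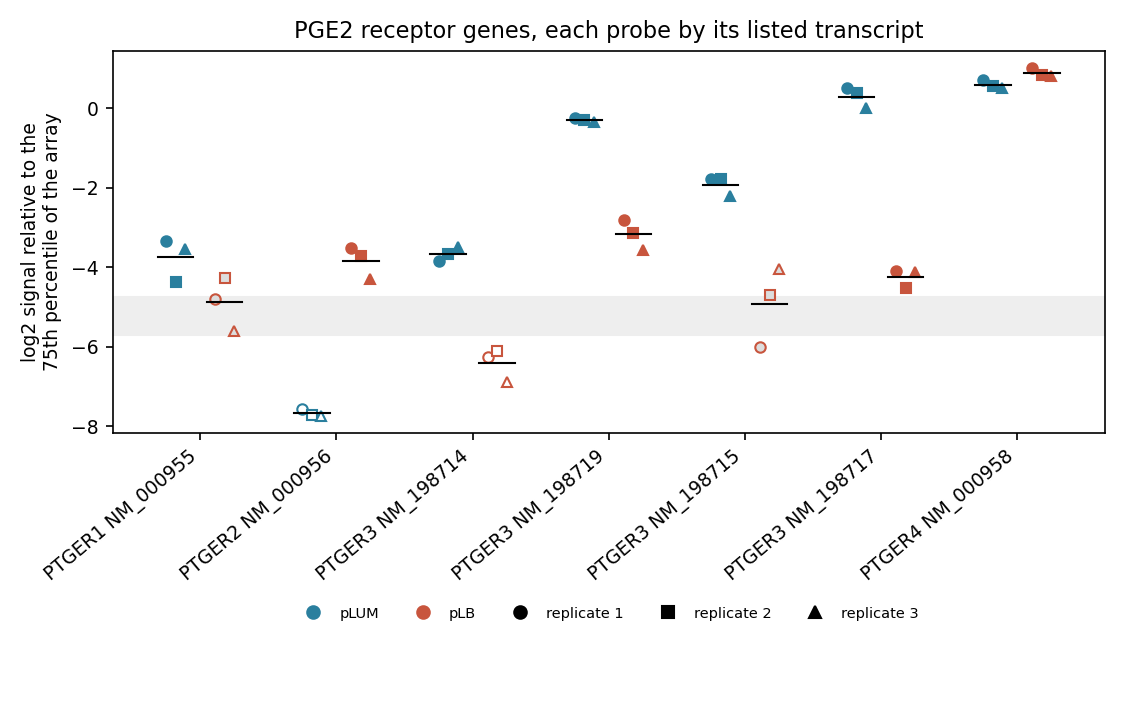
Log2 signal relative to the 75th percentile of the array (y axis) for each probe of the EP receptor genes, named by gene and transcript (x axis), on the 3 pLUM (blue) and 3 pLB (red) arrays, with symbols, bars and band as in the plot of the 10 genes. PTGER2 was measured only in pLB, PTGER4 in both lines, and the 4 PTGER3 probes are lower on all pLB arrays than on any pLUM array.

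Arrays on the slide shared by both lines gave a pLB minus pLUM difference from pLB replicate 1 alone. These log2 differences were 6.52 for PLA2G4A, 5.38 for PTGS1, 6.44 for PTGS2, 1.07 for PTGES3, 4.24 for SLCO2A1, 4.17 for PTGER2 and 0.41 for PTGER4, with an arm of 1 pLB array. The spread in that fit came from the 3 pLUM arrays and from pLB replicates 2 and 3, so it assumes that replicate 1 varied like them, and it called the same 6 genes. With signals under the detection limit set to that limit, the differences of PLA2G4A, PTGS1, PTGS2 and PTGER2 were 4.20, 2.04, 4.39 and 1.55, all called. With normexp they were 1.87, 0.58, 2.01 and 0.39, of which PLA2G4A and PTGS2 were called. The sign was the same under every scaling for all 8 genes.

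**Figure D3:**
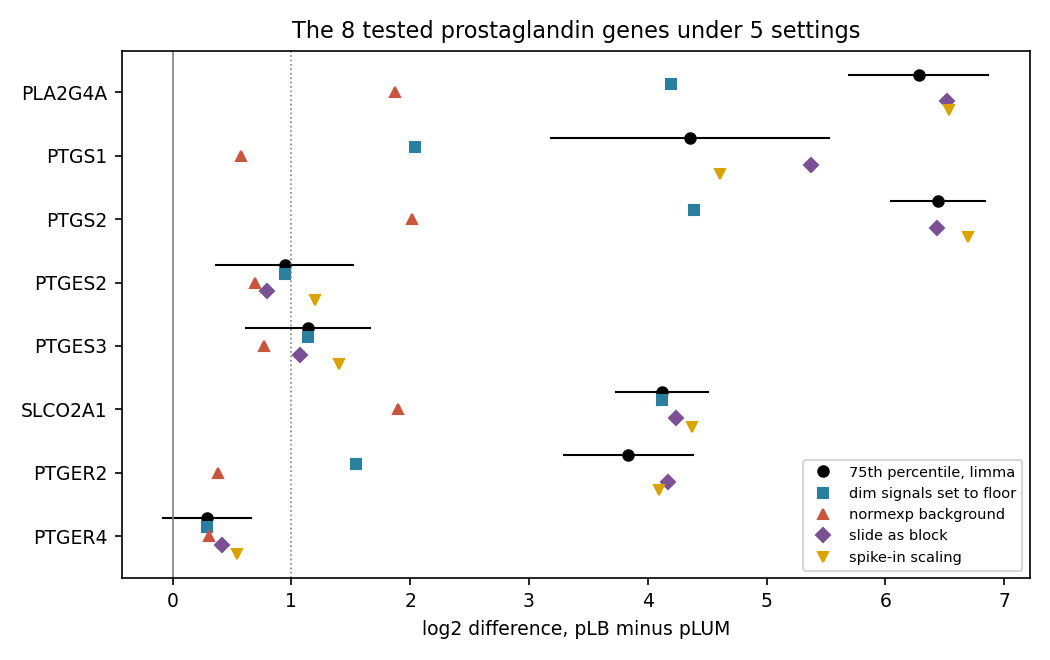
Log2 difference, pLB minus pLUM (x axis), of the 8 tested prostaglandin genes (y axis) under 5 settings: the 75th percentile with limma (black, bar: 95% interval), dim signals set to the detection limit (blue), normexp background correction (red), slide as a block (purple) and spike-in scaling (yellow). The dotted line marks 2-fold. The genes dim in pLUM spread widely over the settings, PTGS1 between 0.58 and 5.38, while PTGER4 stays between 0.29 and 0.55.

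Beyond these 10 genes, 4 lists of the wider arachidonate pathway held 48 genes, of which 34 were tested. In pLB 7 were called higher and 12 lower, beside 22.7% and 23.0% of all genes, with a median log2 difference of -0.36 against 0.04. ABCC4 and ACSL4 entered the test only through pLB and had to be higher there. PLA2G4D entered only through pLUM and had to be lower in pLB, and ALOX15, not called, also entered only through pLUM. Counts and medians here and for the single lists below include these genes. With spike-in scaling 10 were called higher and 10 lower. The lists were made with earlier results of these data known, and the counts are descriptions.

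Of 11 other prostanoid enzymes 9 were tested, with a median log2 difference of -0.64. In pLB 2 were called higher and 4 lower, beside 22.7% and 23.0% of all genes tested. AKR1C3, an aldo-keto reductase that reduces prostaglandin D2, was 25.3-fold higher in pLB (log2 difference 4.66, adjusted p = 1.5e-05), although near-identical AKR1C genes may share its probe. CBR1, a carbonyl reductase, was 2.55-fold higher, a call lost when its probes were averaged. PTGDS, the prostaglandin D2 synthase, was 8.42-fold lower (log2 difference -3.07, adjusted p = 1.1e-05), while its other probe differed by -0.37 on the log2 scale (adjusted p = 0.14). Among the reductases that act on prostaglandins and their metabolites, PTGR1 was 4.24-fold lower, AKR1B1 2.59-fold lower and PTGR3 2.56-fold lower. The other PTGR1 probe differed by -0.66 on the log2 scale and was not called, while the other PTGR3 probe was 5.14-fold lower. The AKR1B1 call changed under 8 of 18 alternatives.

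Of 9 other receptor and transport genes 5 were tested, with a median of -0.12. Calls were 2 higher and 2 lower, beside 22.7% and 23.0% of all genes tested. ABCC4, an exporter of prostaglandins and cyclic nucleotides, read -7.56, -7.77 and -7.77 in pLUM and -3.85, -4.02 and -3.71 in pLB. Its signal in pLB was higher by at least 2.86-fold (fitted log2 difference 3.84, adjusted p = 2.7e-06), a call lost with normexp (0.22). PTGFRN, a negative regulator of the prostaglandin F2 receptor, was 9.68-fold higher (log2 difference 3.28, adjusted p = 7.1e-06). PTGER3 and PTGER1 were the pair called lower.

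Of 15 genes of other phospholipases and arachidonate supply 12 were tested, with a median of -0.10. Higher calls numbered 2 and lower calls 4, beside 22.7% and 23.0% of all genes tested. Of the 5 listed relatives of PLA2G4A in the cytosolic phospholipase family, 3 were tested. All 3 were called lower in pLB, beside 23.0% of all genes tested, and PLA2G4D had to be lower since it entered only through pLUM. PLA2G4E was too dim to measure in both lines and PLA2G4B had no probe. Those called were PLA2G4C with a log2 difference of -3.32 (adjusted p = 9.7e-06), PLA2G4D by at least 7.96-fold (adjusted p = 1e-05) and PLA2G4F by 2.03-fold (adjusted p = 0.0096). The PLA2G4F call ended under 5 of 19 alternatives. Its other probe, not well above background in pLB, was called lower by at least 2.49-fold (adjusted p = 0.0026, limma). That probe likewise entered only through pLUM and had to be lower in pLB. ELOVL2, which elongates polyunsaturated fatty acids, was 27.9-fold lower (log2 difference -4.80, adjusted p = 2.9e-06). ACSL4 and LPCAT3 activate arachidonic acid and return it to phospholipids. ACSL4 was at least 7.75-fold higher in pLB (adjusted p = 8.4e-05), lost with normexp, and LPCAT3 was 4.09-fold higher (adjusted p = 3.8e-05).

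Of 13 genes of the lipoxygenase branch, which competes for the same acid and yields leukotrienes, 8 were tested, with a median of -0.63. In pLB 1 was called higher and 2 lower, beside 22.7% and 23.0% of all genes tested. LTC4S, the leukotriene C4 synthase, was 4.65-fold lower in pLB (adjusted p = 4.5e-05). ALOX15B was 2.97-fold lower (adjusted p = 0.0071), lost with normexp, and the leukotriene receptor gene LTB4R2 was 2.07-fold higher (adjusted p = 0.002), lost under 4 of 19 alternatives.

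**Figure D4:**
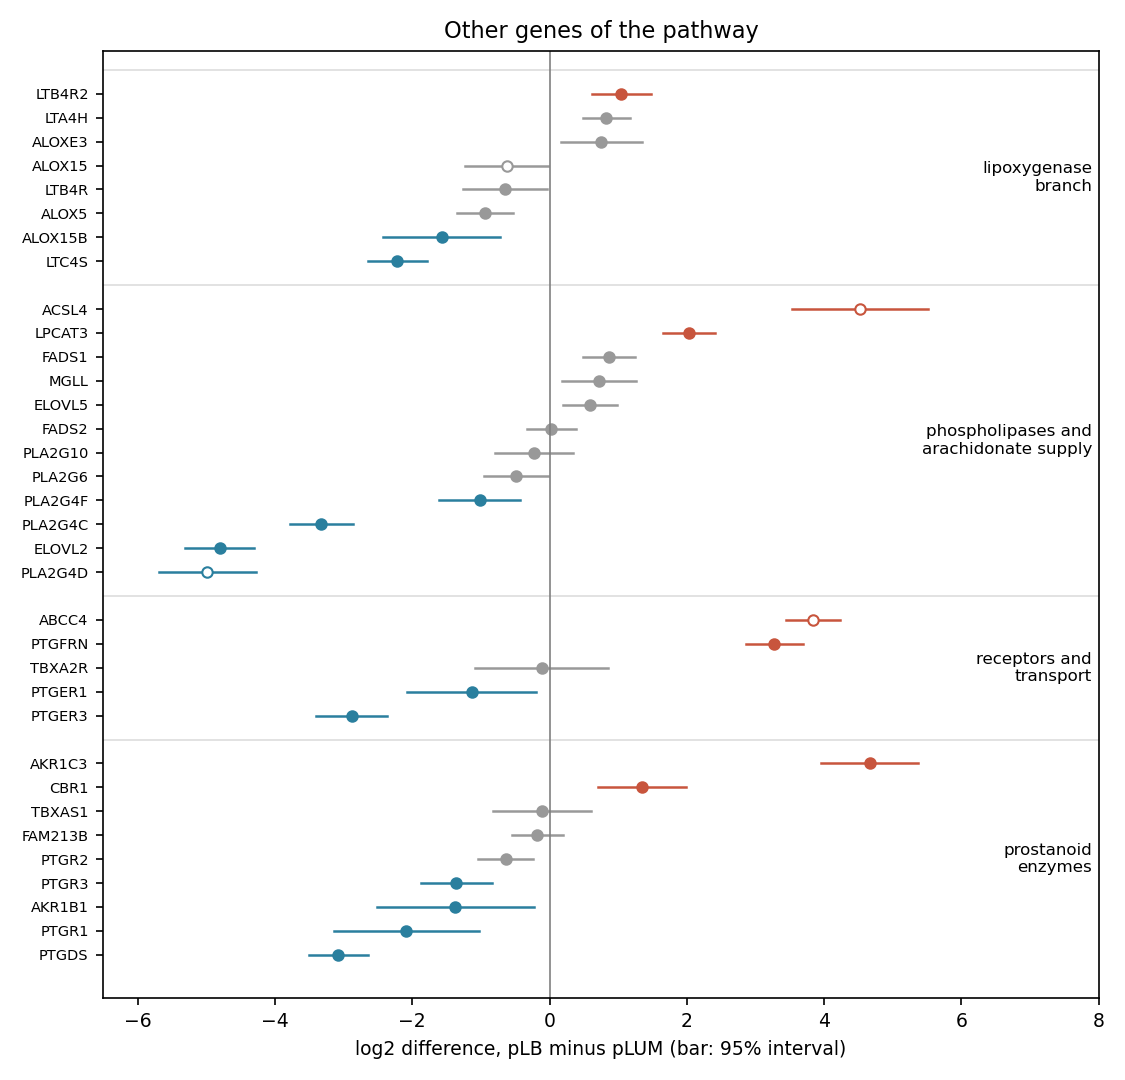
Log2 difference, pLB minus pLUM (x axis), with its 95% interval, of the 34 tested genes of the 4 pathway lists (y axis), called higher in pLB (red), called lower (blue) or not called (grey). An open circle marks a gene too dim to measure in either pLUM or pLB. ELOVL2 at -4.80 and AKR1C3 at 4.66 lie near the ends of the range, and the open circles, such as PLA2G4D, have no exact difference.

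PTGS2 and PLA2G4A had the closest positions of the 10 genes, with their probes 316.1 kb apart on hg19 chromosome 1 and 0 other probes between them. Within 1 Mb on either side lay 8 other probes of 7 names, all on the PTGS2 side, of which 5 were tested. Of these 3 were called lower in pLB and 1 higher, beside 5476 lower and 5054 higher of all 23105 probes tested. A TPR probe was among the lower calls (log2 difference -2.98), while a brighter TPR probe was not called (-0.33, adjusted p = 0.27, limma). The higher call was HMCN1, at least 45.1-fold, which entered the test only through pLB and had to be higher there. HMCN1 and TPR are named after their values were seen.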

How the data were processed

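RNA of 3 sorts of pLUM and 3 of pLB was measured on single-dye Agilent arrays. The authors deposited a linear intensity for each spot from Agilent Feature Extraction 10.10.1.1, corrected for background and detrended within each array but not scaled between arrays, with flags for outliers and background. Partek is named in the submitters' notes, and no Partek values were used.

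From the deposited intensity, log2 values were scaled by subtracting the 75th percentile of their array. Controls and spots marked as outliers (296 to 387 per array) were dropped, no gene spot was saturated, and spots of a probe were averaged. A probe was well above background where at least as many of its spots were so scored as were not. Probes so scored on at least 3 of 6 arrays were tested (lmFit and eBayes, limma 3.58.1, R 4.3.3), and calls required 2-fold and an adjusted p under 0.05. A gene of several probes is represented by the tested probe with the highest mean. Bounds set each dim array at the higher of its own value and the lowest signal well above background. The number of arrays limits precision, and with 3 against 3 an exact two-sided permutation p cannot go below 0.1, so no such test is given. On data simulated with the probe means and spreads of these arrays, 168 of 200 changed probes among 23099 were recovered (84%), with 9 false calls. The changes set were all larger than 2-fold and in few probes. These figures therefore do not cover calls near 2-fold or a comparison in which many genes differ.

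The genes and lists were chosen with earlier results of these data known. Of the pathway lists, called genes were named (at most 4 per direction), with PTGER1, PTGER3, PTGDS and ABCC4 whatever their values. Positions are those of the files (hg19), and the part of the transcript a probe covers was not determined here. Upstream sequences are from a RefSeq table for GRCh38.p14. Replicate numbers were not treated as pairs in the main fit. The deviations of same-numbered arrays correlated at -0.265, -0.095 and -0.217. Differently numbered arrays were not set beside them, so these values cannot show whether the numbers paired the samples. Alternatives changed the background correction, scaling, filter, threshold, test, probe rule or block, or omitted 1 array. The E plus progesterone treated T47Dco cells of the methods were not analysed here.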

Additional observations from a re-analysis of the deposited data

How the results depend on the processing

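Calls among the 10 genes were 6 higher and 0 lower in pLB. Higher calls numbered 3 with normexp and 2 when probes had to be well above background on all 6 arrays, a rule that removes the genes dim in pLUM. With no filter on dim probes 1 gene, PTGES, was called lower. Leaving out each array in turn gave 5 to 7 higher and 0 to 0 lower. Calls in the pathway lists were 7 higher and 12 lower. Higher calls numbered 4 with normexp and 12 with no fold threshold (10 higher and 10 lower with spike-in scaling), and lower calls 7 with all 6 arrays required, while leaving out each array gave 6 to 7 and 9 to 12. Over all probes 5054 were called higher and 5476 lower, against 3004 and 4033 with normexp. With spike-in scaling the median of all probes shifted from -0.008 to 0.247, and 58.3% of calls were higher in pLB rather than 48.0%. The methods' t-test called 6 of the 10 genes higher and 0 lower, before and after Benjamini-Hochberg adjustment, and 7 and 10 pathway genes. The cause of the changes with normexp was not tested.

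With the replicate number as a block, 6 of the 10 genes were called higher and 0 lower, and 7 and 11 pathway genes. This block changed 1 pathway call, PTGER1. Dim signals limit PLA2G4A, PTGS1, PTGS2 and PTGER2 to bounds in pLUM.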
